A study of Mus musculus with 75 samples.

Results

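This comparison set the sorted population labelled HPC, early blood progenitors by the marker genes below, of Kmt2c knockout mice against the same population of wild-type mice, both given vehicle. It rests on 6 of the 75 RNA-seq libraries of the series, 3 per genotype, chosen by their labels alone. The knockout (ko) genotype is Kmt2c f/f; Vav-Cre, in which both alleles are floxed and a Vav transgene drives Cre recombinase in blood cells, and the other genotype is labelled wild type (wt). All 6 libraries came from 8-week-old mice given PBS for 3 days, the vehicle arm of an experiment whose other arm received the inflammatory cytokine IL-1 (0.5 µg per mouse, 3 days). Set beside them below are HPC after IL-1, haematopoietic stem cells (HSC) after PBS, and cells of an untreated experiment. The untreated HPC were of wt, heterozygous (Kmt2c f/+; Vav-Cre) and ko mice, and untreated wt HSC, pGM and GMP are used too. By the labels all these mice were 8 weeks old. Of 41388 gene IDs counted, 15951 passed a filter on low counts and were tested.

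What limits the groups as a model is set by the labels. The wt mice carry no Vav-Cre label, so the loss of Kmt2c and the presence of Cre cannot be told apart in this comparison. Vav-driven Cre acts throughout the blood system, so the cells that gave rise to the sorted progenitors carry the deletion too. Nothing in the labels says whether the 3 libraries of a group are separate animals. The sex-linked genes below differ within each group, so its 3 libraries did not all come from 1 animal. The p values reflect only how far libraries of a group differ, over the 12 HPC libraries of the fit, part of which may be technical. In sorted bulk RNA, fewer cells of a type and less RNA per cell cannot be told apart.

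KMT2C, also called MLL3, is the catalytic subunit of a COMPASS-like complex that methylates lysine 4 of histone H3, mainly at enhancers, where it works beside its close relative KMT2D. Haematopoietic progenitors descend from quiescent stem cells and divide to supply the myeloid and lymphoid lineages. KMT2C lies in a chromosomal segment that is often lost in human myeloid malignancies, and the title of the series ties its mutation in mouse stem cells to features of activation and of quiescence and to an advantage after chemotherapy.

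The 6 libraries held between 26997636 and 42826325 counts. Kit, Ly6a, Cd34, Cd48 and Flt3, genes of early progenitors, were present in all 6, and their summed level lay between 2827 and 3503 CPM (counts scaled to a common library size, here after TMM scaling) in wt and between 3156 and 3866 CPM in ko. The T cell gene Cd3e did not exceed 0.25 CPM, although Cd4, also a T cell marker, was at 11.3 to 17.4 CPM in wt and 25.4 to 37.5 CPM in ko (adjusted p = 0.128 by edgeR); the B cell gene Ms4a1 stayed at or below 0.676 CPM and the endothelial gene Kdr at or below 0.451 CPM. The B lineage gene Cd79a, also made by lymphoid progenitors, ranged from 23.3 to 90.7 CPM. Markers of other cell types were present in every library too. In wt, 5 macrophage genes summed to 51.0 to 79.3 CPM and in ko to 48.9 to 93.2 CPM, led by Cd163, Vcam1 and C1qb. For 4 platelet genes the sums were 24.7 to 36.8 and 18.1 to 24.2 CPM. For 5 erythroid genes they were 9.29 to 26.2 and 4.80 to 32.0 CPM. Sums of 3 NK cell genes were 5.56 to 12.5 and 4.55 to 8.65 CPM, and of 3 dendritic genes 5.69 to 7.36 and 3.17 to 6.10 CPM. The sum of 4 mast cell and basophil genes was 15.4 to 34.0 CPM in wt and 24.4 to 78.3 CPM in ko, where Prss34 reached 47.2 CPM in ko PBS 1. Their part in the results was not tested. Xist was present and Y-linked genes were near 0 in 2 libraries of each genotype, and the reverse held in 1 library of each, so both groups hold the same mixture.

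The library wt PBS 1 stood apart from the other two of its group. Kit, the stem cell factor receptor, was at 374 CPM there and at 834 and 942 CPM in the other wt libraries, while the 3 ko libraries ranged from 751 to 930 CPM. The summed level of 5 neutrophil genes, S100a8, S100a9, Ltf, Camp and Ngp, was 82.1 CPM in wt PBS 1, 19.1 and 14.5 CPM in the other wt libraries, and 5.39 to 9.27 CPM in ko. All 5 were tested and 0 passed in edgeR, while DESeq2 called S100a8. Every ko library lay below every wt library in this sum, and its part in the results was not tested. Counts of called list members are also given without that library for the 6 lists with a call, and the other 23 lists had 0 calls in edgeR without it too.

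**Figure D1:**
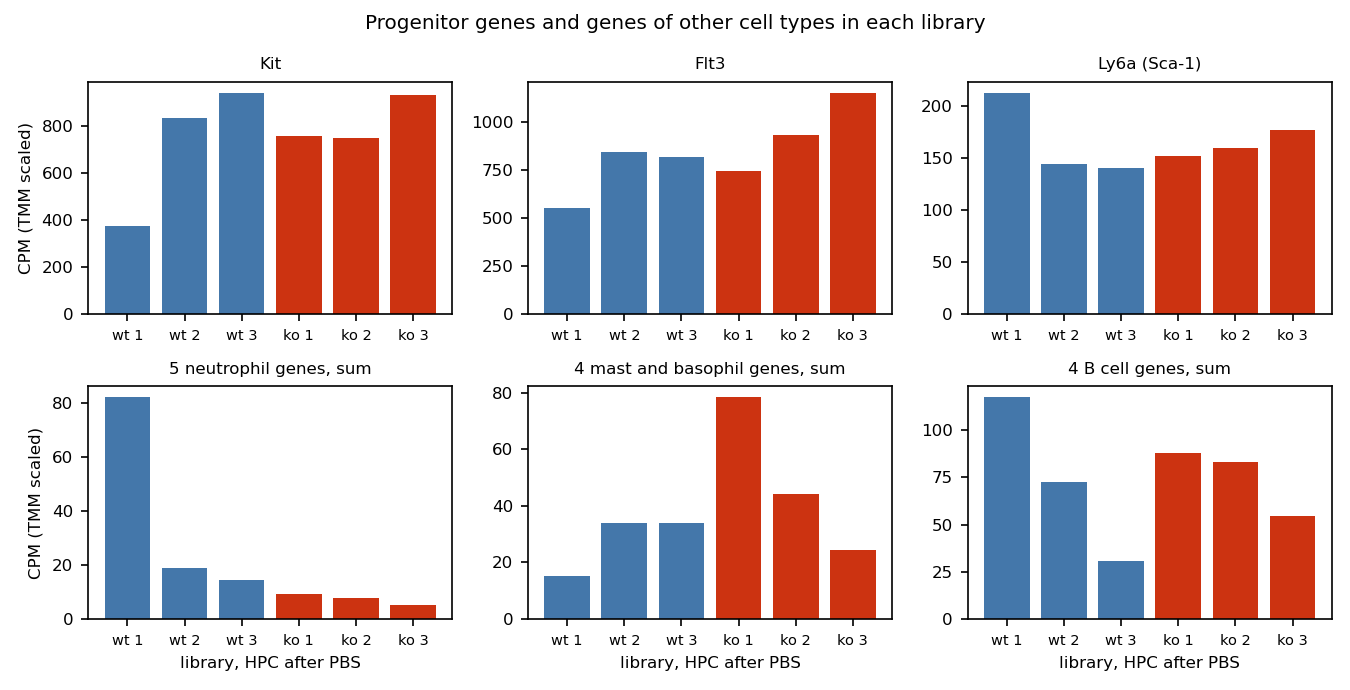
Level in CPM (vertical axes, linear, from 0) of 3 progenitor genes and of 3 summed marker lists in each of the 6 HPC libraries (horizontal axes, wt in blue, ko in red, 1 bar per library). The library wt 1 has the lowest Kit, 374 CPM, and the highest sum of neutrophil genes, 82.1 CPM.

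Kmt2c itself was measured at 29.5, 60.4 and 66.4 CPM in the wt libraries 1 to 3 and at 12.9, 19.9 and 21.8 CPM in the ko libraries 1 to 3. Every ko library was below every wt library, with wt PBS 1 closest to the ko group. The log2 change was -1.51 ± 0.28 (SE), a 2.86-fold lower level, with an edgeR adjusted p of 0.0435. Which exons are floxed is not stated in the labels, and reads from undeleted exons are counted too, so the remaining signal does not measure intact transcript. The call was lost in 5 of the 6 fits that left out 1 library, and with a covariate of Y-linked expression; it held without wt PBS 1.

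Few genes passed the test. Of the 15951 genes, 41 were called at an adjusted p under 0.05 by edgeR's quasi-likelihood test with Benjamini-Hochberg adjustment, which is 0.257% of those tested. Of these, 14 were higher and 27 lower in ko. In all 41 the 3 ko libraries and the 3 wt libraries did not overlap. Choosing genes by a small p favours this, and the share of such genes among all tested was not counted, so it adds no support. At an unadjusted p under 0.05 there were 1442 genes, 9.04% of those tested. The median log2 change over all genes was 0.00. Each library mattered to the count: it was 16, 11 and 13 without ko PBS 1, 2 and 3, and 17, 7 and 7 without wt PBS 1, 2 and 3. DESeq2 called 228 genes.

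Among the lower genes were 4 receptors for small lipids or protons. They were grouped after their values were seen. P2ry10 and S1pr1 belong to a list of lysophospholipid and chemokine receptors, which was itself chosen with earlier results of these data known. P2ry10, a receptor for lysophosphatidylserine on lymphoid and myeloid cells, was at 7.56, 24.3 and 19.3 CPM in wt and at 1.76, 1.69 and 1.09 CPM in ko. The lowest wt library, wt PBS 1, was still well above the highest ko library, and the log2 change was -3.49 ± 0.41 (adjusted p = 0.00468 by edgeR). S1pr1, the sphingosine 1-phosphate receptor that guides cells out of tissue into blood, was at 18.6, 21.8 and 27.6 CPM in wt and at 5.18, 2.68 and 2.91 CPM in ko. All 3 ko libraries were far below the wt range, with a log2 change of -2.66 ± 0.35 (adjusted p = 0.00671 by edgeR).

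Gpr174, a second lysophosphatidylserine receptor, was at 1.78, 2.57 and 4.31 CPM in wt and at 0.136, 0.0292 and 0.227 CPM in ko, where 1 to 10 counts per library remained. Its log2 change was -4.37 ± 0.56 (adjusted p = 0.00639 by edgeR). Gpr65, a receptor that senses protons, was far more even between libraries, at 61.5 to 65.7 CPM in wt and 21.1 to 33.7 CPM in ko, with a log2 change of -1.14 ± 0.19. In the receptor list as a whole, 2 of 20 members tested fell, where 0.169% of all genes tested did, and 0 rose. As the list was not chosen independently of these data, this count is a description only. The median log2 change was -0.20 against 0.00 over all genes, and both calls held without wt PBS 1. The member with the next smallest p, the chemokine receptor Cxcr3, was at 1.35 to 2.88 CPM in wt and 2.87 to 5.48 CPM in ko (adjusted p = 0.374 by edgeR).

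P2ry10 and Gpr174 were the only 2 of the 41 called genes whose annotated bodies lie within 500 kb of each other, 151 kb apart on chromosome X. P2ry10b, a close relative that lies between them, had a log2 change of -1.95 ± 0.45 (adjusted p = 0.114 by edgeR), and reads shared between P2ry10 and P2ry10b may be counted for either. Cysltr1 and Lpar4, upstream of P2ry10 in the same stretch, had log2 changes of -0.20 ± 0.42 and -0.19 ± 0.63. Itm2a, which follows Gpr174, had -0.43 ± 0.18 (adjusted p = 0.479 by edgeR). Within this stretch, the 2 called genes and P2ry10b had the most negative values among the 9 genes tested.

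Among the other lower genes with a channel or transporter product, Aqp9 had the smallest p of all genes tested. Aqp9, a channel for water and glycerol, was at 74.9, 75.8 and 92.8 CPM in wt and at 24.8, 18.4 and 30.5 CPM in ko. The groups were narrow and far apart, with a 3.30-fold lower level in ko (log2 change -1.72 ± 0.20, adjusted p = 0.00468 by edgeR). Trpc6, a cation channel opened by diacylglycerol, was at 6.68, 5.10 and 9.01 CPM in wt and at 1.14, 0.875 and 1.23 CPM in ko (log2 change -2.67 ± 0.35, adjusted p = 0.00671).

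Several other lower calls encode receptors or adaptors of immune cells, grouped here after their values were seen. Clec4e encodes Mincle, a lectin receptor for microbial glycolipids and for dying cells, and was at 28.7, 31.3 and 38.1 CPM in wt and at 8.92, 8.05 and 10.1 CPM in ko. Its log2 change was -1.86 ± 0.23 (adjusted p = 0.00507 by edgeR). Cd96, a receptor of T and NK cells also found on early progenitors, was at 26.2, 41.1 and 47.8 CPM in wt and at 6.10, 9.66 and 5.03 CPM in ko, with wt PBS 1 the lowest of its group. Siglecg, an inhibitory sialic acid receptor, ranged from 7.39 to 8.76 CPM in wt and from 2.57 to 3.25 CPM in ko.

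The adaptor genes Clnk and Fyb fell as well, Clnk as the only call among 17 mast cell, basophil and eosinophil genes tested, which was lost without wt PBS 1. The list as a whole leaned the other way, with 10 of 17 positive and a median log2 change of 0.53. In edgeR 5 of its members had an unadjusted p under 0.05, and DESeq2 called 2, Clnk and Hpgds. Clnk, an adaptor of immune receptor signalling that is found in mast cells and cytokine-dependent blood cells, was at 21.7, 16.3 and 21.0 CPM in wt and at 3.85, 1.81 and 5.14 CPM in ko (log2 change -2.45 ± 0.37, adjusted p = 0.0183 by edgeR). Fyb, which links receptor signals to integrins, was at 53.7 to 62.9 CPM in wt and 24.0 to 30.6 CPM in ko. Fgl2, a fibrinogen-like protein with immune roles, was at 19.8, 35.9 and 27.1 CPM in wt and at 7.81, 10.2 and 8.14 CPM in ko, a 3.16-fold lower level with an adjusted p of 0.0477.

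Genes that mark neighbouring lineages gave 1 or 2 calls per list rather than whole lists. Mmrn1, which encodes the platelet and endothelial protein multimerin, was at 15.2, 40.5 and 49.8 CPM in wt and at 3.63, 4.61 and 4.48 CPM in ko. The ko libraries were tight and the wt libraries spread, with wt PBS 1 lowest, and the log2 change was -3.05 ± 0.46 (adjusted p = 0.0183 by edgeR). It was the only call among 21 megakaryocyte and platelet genes tested, whose median log2 change was -0.23, and it was called without wt PBS 1 as well, where that median was -0.39. Of the other members, Thbs1, a matrix glycoprotein of platelets, was at 3.57 to 4.66 CPM in wt and 0 to 0.35 CPM in ko (adjusted p = 0.0726), while Selp, the platelet selectin, was at 13.9 to 26.6 CPM in wt and 23.0 to 61.1 CPM in ko (adjusted p = 0.30).

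Hemgn, a nuclear protein of haematopoietic and erythroid cells, was at 24.2, 36.4 and 39.4 CPM in wt and at 10.6, 14.2 and 11.7 CPM in ko (log2 change -1.45 ± 0.27, adjusted p = 0.0493 by edgeR). It was the only call among 22 erythroid genes tested, whose median was -0.07, and the call was lost without wt PBS 1. Car2, an erythroid carbonic anhydrase, was at 2124, 3050 and 2759 CPM in wt and at 1874, 1711 and 1567 CPM in ko, which did not pass (adjusted p = 0.448).

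In the T and NK list, 1 of 19 members tested rose and 1 fell, with a median log2 change of 0.00, and neither call held without wt PBS 1. Tox, a nuclear factor of T and innate lymphoid development, was at 44.0, 69.3 and 51.3 CPM in wt and at 27.5, 26.2 and 19.996 CPM in ko (log2 change -1.16 ± 0.22, adjusted p = 0.0493 by edgeR). Il2rb, the shared beta chain of the IL-2 and IL-15 receptors, went the other way, at 0.225, 0.104 and 0.398 CPM in wt and at 3.93, 1.02 and 4.55 CPM in ko. Gata3, a master factor of T cell development, missed the threshold at 27.9, 26.1 and 32.1 CPM in wt and 12.1, 6.77 and 5.44 CPM in ko (log2 change -1.82 ± 0.37, adjusted p = 0.0673); it passed in 6 of 15 alternative fits.

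Further lower genes covered signalling, enzymes and nuclear proteins. Gucy1a1, a subunit of the guanylate cyclase that senses nitric oxide, was at 14.9, 24.7 and 32.8 CPM in wt and at 5.37, 6.62 and 6.94 CPM in ko (log2 change -1.93 ± 0.32, adjusted p = 0.031 by edgeR). Prkg1, the kinase activated by the product of that enzyme, was at 4.24 to 5.24 CPM in wt and 0.596 to 1.37 CPM in ko. Gdf3, a ligand of the TGF-beta family, was at 15.8, 5.79 and 7.69 CPM in wt and at 1.14, 0.759 and 1.501 CPM in ko, with wt PBS 1 the highest of its group. AA467197 was at 6.06, 9.61 and 4.14 CPM in wt and at 1.25, 2.01 and 1.80 CPM in ko (log2 change -1.97 ± 0.36, adjusted p = 0.0405).

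The remaining lower calls, named after their values were seen, were Rgs7bp, 2310075C17Rik, Mgst2, Myl4, Fmnl2, Bend4 and Lrrn3. Among them Rgs7bp, a membrane anchor for RGS proteins, was at 3.03 to 6.13 CPM in wt and 0.0292 to 0.50 CPM in ko. Lrrn3, a leucine-rich repeat membrane protein, held 21 to 58 counts in the wt libraries and 0 in every ko library, at least 13.7-fold lower when set against a floor of 3 counts per library. Bend4 showed the smallest change of the lower calls, from 37.4 ± 1.098 CPM (SD, n = 3) in wt to 19.8 ± 0.64 CPM in ko, with little spread in either group.

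**Figure D2:**
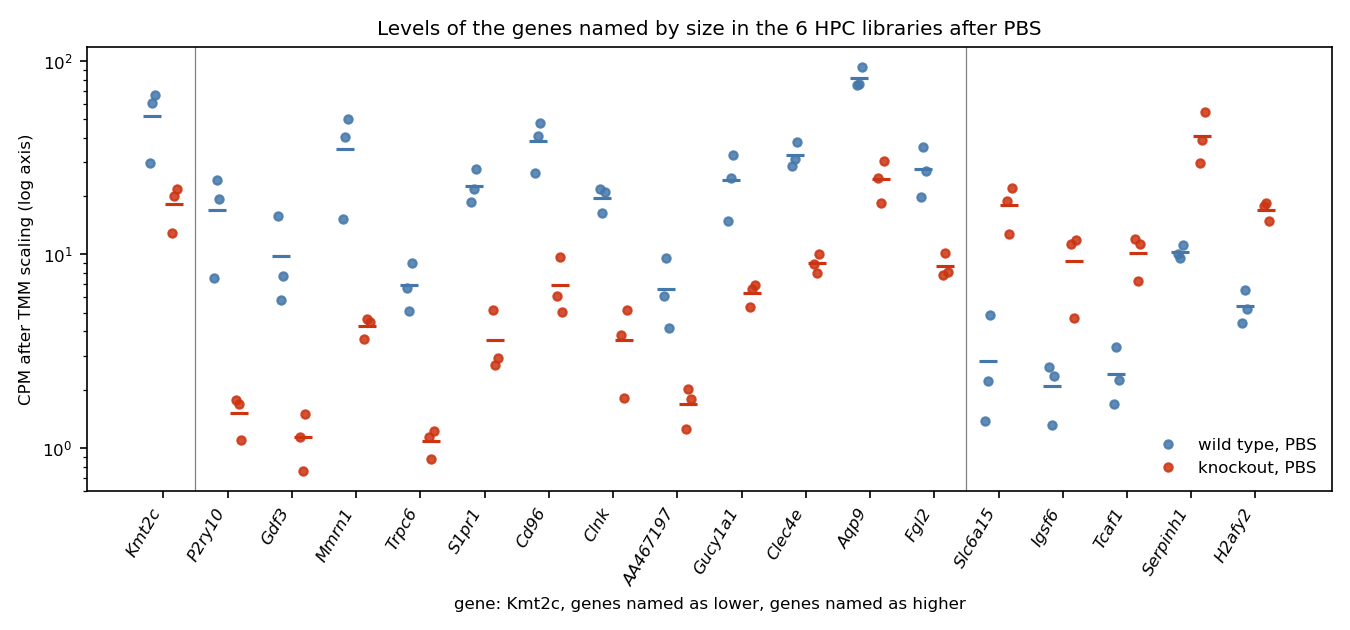
Level in CPM after TMM scaling (vertical axis, logarithmic) of Kmt2c, of 12 lower and of 5 higher genes named by the size of their change, with 1 point per HPC library and a bar at the group mean (wt in blue, ko in red). The lower and higher genes were chosen to show no overlap between the groups, and Kmt2c shows none either. Mmrn1, P2ry10 and Kmt2c have a low point in wt, the library wt 1.

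The higher calls were fewer, and 7 of 14 reached a mean of 5 CPM in the higher group, against 22 of the 27 lower calls. Serpinh1, the chaperone that folds collagen in the endoplasmic reticulum, was at 10.1, 9.54 and 11.2 CPM in wt and at 29.5, 38.8 and 54.2 CPM in ko. The wt libraries were nearly level and all ko libraries lay above them, with a log2 change of 1.99 ± 0.30 (adjusted p = 0.0183 by edgeR). It was the only call among 19 collagen folding and matrix genes tested, and it was lost without wt PBS 1 (adjusted p = 0.0646), where Lgals1 was called in its place (adjusted p = 0.0122). Of these 19, 16 had a positive log2 change, and the median was 0.55 against 0.00 over all genes. Lgals1, a galectin, was at 154, 79.4 and 101 CPM in wt and at 256, 226 and 226 CPM in ko and missed the threshold (adjusted p = 0.0597), as did Ecm1, a matrix glycoprotein, at 3.64 to 7.66 and 6.77 to 15.8 CPM (adjusted p = 0.302).

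Slc6a15, a transporter of neutral amino acids, was at 1.38, 2.22 and 4.84 CPM in wt and at 19.0, 12.8 and 21.9 CPM in ko, a 6.39-fold higher level (adjusted p = 0.0493 by edgeR). H2afy2, a macro-domain variant of histone H2A, was at 4.43, 6.55 and 5.20 CPM in wt and at 17.7, 18.4 and 14.8 CPM in ko (log2 change 1.65 ± 0.31, adjusted p = 0.0493). In both genes every ko library lay above every wt library.

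Igsf6, an immunoglobulin family receptor of myeloid cells, was at 2.60, 1.32 and 2.35 CPM in wt and at 11.3, 4.70 and 11.8 CPM in ko, with ko PBS 2 the lowest of its group (log2 change 2.14 ± 0.39, adjusted p = 0.0405 by edgeR). Tcaf1, a partner of TRP cation channels, was at 1.68, 3.33 and 2.25 CPM in wt and at 12.03, 7.29 and 11.3 CPM in ko (log2 change 2.08 ± 0.39, adjusted p = 0.0457). The lowest ko library was again ko PBS 2, which was also so for Il2rb and Armh4.

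The other higher calls, named after their values were seen, were Sva, Armh4, Evc2, Arfgef3, Gm38393, Tspan17 and C130050O18Rik. Sva, the seminal vesicle autoantigen gene, had 0 counts in all 3 wt libraries and 29 to 72 counts in the ko libraries, at least 13.0-fold higher against a floor of 3 counts per library. Armh4 had 0 counts in wt and 26 to 181 in ko, at least 30.2-fold higher. Evc2, a protein at the base of the primary cilium, had 1 count in a single wt library and 18 to 48 counts in each ko library. In untreated HPC, Sva was at 0.02 CPM in wt, 1.52 CPM in heterozygous and 1.85 CPM in ko cells, and the heterozygous and ko libraries, all of which carry Cre, overlapped.

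RefSeq promoter windows (build GRCm38.p6, 250 bases before to 50 after the annotated start, on the strand of the gene) were in the table used here for 32 of the 41 called genes. The windows shown are those with the largest change in each direction among the genes named by size that have a window. Called genes outside that naming rule, such as Gpr174, Lrrn3, Sva and Armh4, changed more and are not shown. Capitals mark 6-base cores of blood transcription factors on either strand: AGATAA for GATA factors, TGTGGT for RUNX factors and AGGAAG for ETS factors. Among all 27025 genes of the table, 11.4% of windows hold AGATAA, 16.9% TGTGGT and 35.1% AGGAAG. Among the 10690 tested genes with a window the shares are 6.71%, 13.0% and 34.2%. The lower genes P2ry10 (chrX:107088242-107088541, plus strand), Mmrn1 (chr6:60944067-60944366, plus strand) and Trpc6 (chr9:8543892-8544191, plus strand) read as follows; P2ry10 has 2 annotated starts, of which the first is shown.
P2ry10: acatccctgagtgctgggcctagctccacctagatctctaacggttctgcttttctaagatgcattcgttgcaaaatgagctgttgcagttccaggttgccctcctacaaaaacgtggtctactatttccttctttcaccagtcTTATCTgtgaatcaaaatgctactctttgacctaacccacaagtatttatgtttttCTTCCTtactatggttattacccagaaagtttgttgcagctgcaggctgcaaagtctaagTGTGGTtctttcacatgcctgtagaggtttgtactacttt
Mmrn1: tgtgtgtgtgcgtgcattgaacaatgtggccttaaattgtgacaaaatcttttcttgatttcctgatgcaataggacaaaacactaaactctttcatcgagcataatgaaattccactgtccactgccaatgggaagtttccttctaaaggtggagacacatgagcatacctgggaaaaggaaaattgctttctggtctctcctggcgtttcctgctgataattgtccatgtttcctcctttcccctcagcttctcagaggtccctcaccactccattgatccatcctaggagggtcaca
Trpc6: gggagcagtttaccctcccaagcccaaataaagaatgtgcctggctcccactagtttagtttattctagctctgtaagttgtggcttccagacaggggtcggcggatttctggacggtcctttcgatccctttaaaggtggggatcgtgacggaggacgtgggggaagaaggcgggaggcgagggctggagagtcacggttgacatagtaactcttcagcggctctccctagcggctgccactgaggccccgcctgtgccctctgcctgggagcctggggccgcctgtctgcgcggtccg

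The higher genes Igsf6 (chr7:121074481-121074780, minus strand), Tcaf1 (chr6:42710066-42710365, minus strand, the first of 2 annotated starts) and Serpinh1 (chr7:99353190-99353489, minus strand) read as follows, from the 5′ end of the gene's own strand.
Igsf6: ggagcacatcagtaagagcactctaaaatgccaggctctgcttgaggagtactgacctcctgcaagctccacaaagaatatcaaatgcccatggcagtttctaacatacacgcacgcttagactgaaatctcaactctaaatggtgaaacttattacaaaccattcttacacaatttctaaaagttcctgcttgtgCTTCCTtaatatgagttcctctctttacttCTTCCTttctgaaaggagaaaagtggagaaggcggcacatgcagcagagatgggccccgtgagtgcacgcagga
Tcaf1: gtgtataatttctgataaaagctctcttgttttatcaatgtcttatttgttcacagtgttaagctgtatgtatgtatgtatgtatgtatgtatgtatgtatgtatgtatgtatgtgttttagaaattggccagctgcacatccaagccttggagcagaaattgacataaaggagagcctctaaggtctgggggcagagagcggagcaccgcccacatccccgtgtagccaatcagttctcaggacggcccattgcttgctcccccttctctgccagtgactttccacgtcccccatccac
Serpinh1: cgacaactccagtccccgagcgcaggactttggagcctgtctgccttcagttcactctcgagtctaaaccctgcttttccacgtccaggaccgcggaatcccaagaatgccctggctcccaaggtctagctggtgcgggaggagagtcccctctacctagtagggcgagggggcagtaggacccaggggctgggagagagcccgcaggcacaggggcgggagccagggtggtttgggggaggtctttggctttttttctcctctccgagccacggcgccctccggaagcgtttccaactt

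The window of P2ry10 held 1 match of each core, and that of Igsf6 held 2 matches of AGGAAG on the opposite strand. The windows of Mmrn1, Trpc6, Tcaf1 and Serpinh1 held 0. That of Mmrn1 follows the RefSeq start and lies inside the GENCODE M21 gene, which starts at chr6:60924976. It therefore does not describe the sequence at the GENCODE start. A match is a description of letters and not a bound site. Slc6a15 and Gdf3 were not in the table.

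Lists of haematopoietic and growth genes gave 8 called members in all, named above, and 23 of the 29 lists gave 0 in edgeR. Those 23 lists hold 467 distinct genes tested, of which 54 had an unadjusted p under 0.05 and 8 were called by DESeq2. Mitosis genes leaned upward with 28 of 30 positive and a median log2 change of 0.22, without a call; the smallest p was that of Aurkb, a kinase of chromosome segregation, at 63.4 to 89.7 CPM in wt and 97.1 to 125 CPM in ko (adjusted p = 0.557 by edgeR). DNA replication genes had 24 of 30 positive with a median of 0.14. Cholesterol synthesis genes had 21 of 23 positive with a median of 0.33; Fdps, which makes farnesyl diphosphate, was at 37.9 to 89.1 CPM in wt and 72.2 to 173 CPM in ko (adjusted p = 0.471). The same 3 lists had medians of 0.32, 0.32 and 0.19 without wt PBS 1, and of 0.17, 0.02 and -0.03 in untreated HPC.

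Of 30 stem cell genes, edgeR and DESeq2 called 0, 5 had an unadjusted p under 0.05 and 17 were positive, with a median log2 change of 0.05, or -0.07 without wt PBS 1. Procr, the endothelial protein C receptor that marks stem cells, was at 25.5, 21.2 and 34.5 CPM in wt and at 12.7, 11.3 and 16.1 CPM in ko, separated but not called (adjusted p = 0.35 by edgeR). Slamf1, another stem cell marker, was at 1.00 to 2.68 CPM in wt and 2.89 to 5.005 CPM in ko (adjusted p = 0.444). Hlf, a stem cell transcription factor, was at 199 to 310 CPM in wt and 175 to 205 CPM in ko.

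Granulocyte and monocyte genes had 20 of 29 positive and a median of 0.24; edgeR called 0, 11 had an unadjusted p under 0.05 and DESeq2 called 1, Ly6c2. Prtn3, a neutrophil serine protease, was at 268 to 420 CPM in wt and 471 to 597 CPM in ko (adjusted p = 0.368 by edgeR), and Ly6c2, a monocyte surface antigen, was at 10.3 to 22.0 CPM in wt and 39.1 to 69.4 CPM in ko (adjusted p = 0.217 by edgeR). Late neutrophil granule genes had the lowest median of all lists, -1.31, with 8 of 11 negative; edgeR called 0, 6 had an unadjusted p under 0.05 and DESeq2 called 1, S100a8. Without wt PBS 1 the median was -0.22. After IL-1, where that library does not enter the contrast, it was -1.02, and in HSC after PBS -0.84. In untreated HPC the median had the opposite sign, 1.92. S100a8 was at 28.0 CPM in wt PBS 1, 10.9 and 6.30 CPM in the other wt libraries, and 2.502 to 4.26 CPM in ko.

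Cd74, the invariant chain of MHC class II, was at 181 to 271 CPM in wt and 537 to 567 CPM in ko and did not pass (adjusted p = 0.157 by edgeR); DESeq2 called it. In its list of 14 genes edgeR called 0, and 1 had an unadjusted p under 0.05. Of the genes that sense the cytokine used in the other arm, Il1r1, the IL-1 receptor, was at 39.6, 85.1 and 76.7 CPM in wt and at 33.3, 39.4 and 51.5 CPM in ko (adjusted p = 0.445). Among 17 H3K4 methyltransferases and partners other than Kmt2c, edgeR and DESeq2 called 0, 1 had an unadjusted p under 0.05 and the median was 0.00.

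**Figure D3:**
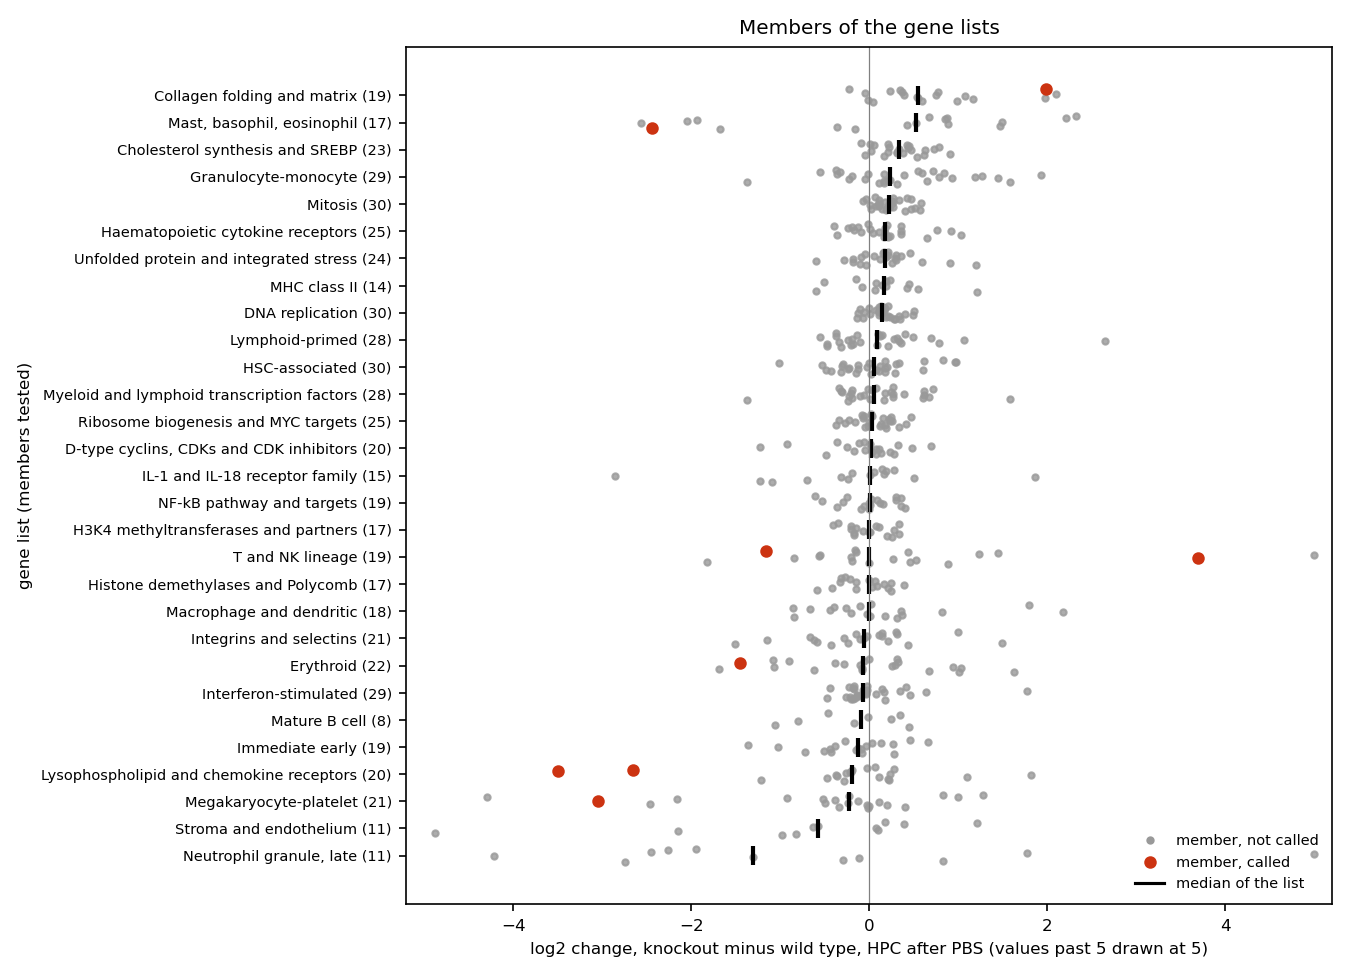
Log2 change from wt to ko in HPC after PBS (horizontal axis) of every tested member of the 29 gene lists (vertical axis, number tested in brackets), with called members in red, others in grey and a black bar at the list's median. Called members appear in 6 lists, 1 or 2 in each, and some lie inside the range of members not called. The lowest median is that of late neutrophil granule genes, -1.31.

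The same contrast was measured in 3 other pairs of groups, none of which shares a library with the PBS comparison. In HPC of mice given IL-1, 32 of 15951 genes were called (0.201%), and all 41 genes called after PBS had the same direction there. Of these, 16 were called in both, 39% of the PBS calls and 50% of the IL-1 calls. That comparison shares its fit, and so its estimate of spread, with the PBS one. The count of IL-1 calls was 16, 2 and 18 without ko IL-1 1, 2 and 3, and 58, 9 and 10 without wt IL-1 1, 2 and 3. Aqp9 was at 65.3 ± 0.984 CPM (SD, n = 3) in wt and 17.3 ± 1.24 CPM in ko after IL-1, a log2 change of -1.91 ± 0.20.

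In untreated HPC, from a separate experiment with 4 libraries per genotype, 146 of 13276 genes were called (1.1%). It was 80 to 101 with 1 library left out, and moved by over 1.5 times without wt 1, 2, 3 or 4 (80, 94, 85 and 92) and ko 3 or 4 (90 and 86). Of the 40 PBS calls tested there, 39 had the same direction and 22 were called, 53.7% of the 41 PBS calls and 15.1% of the untreated calls. The exception in direction was AA467197, at 7.52 ± 0.85 CPM (SD, n = 4) in wt and 8.48 ± 2.001 CPM in ko. S1pr1 was at 25.9 ± 7.75 CPM in untreated wt and 2.40 ± 1.201 CPM in untreated ko, and Cd96 at 56.4 ± 11.2 and 8.66 ± 1.397 CPM. Gata3, just outside the threshold after PBS, was called there, with a log2 change of -2.72 (adjusted p = 8.94e-06 by edgeR).

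Untreated heterozygous HPC (Kmt2c f/+; Vav-Cre) carry Cre as the knockout does, which the wt libraries do not by their labels. In ko against heterozygous HPC, a comparison added after the data were seen, 26 of 13276 genes were called (0.196%), and 39 of the 40 PBS calls tested had the same direction. That comparison shares its ko libraries with untreated ko against wt, and its count moved by over 1.5 times without ko 1, 3 or 4 (14, 11 and 13). Called in both were 11 genes, 26.8% of the PBS calls and 42.3% of the other list: Aqp9, Cd96, Clec4e, Gucy1a1, Hemgn, Kmt2c, Mmrn1, P2ry10, Rgs7bp, S1pr1 and Tox. Kmt2c was at 33.6 ± 7.89 CPM (SD, n = 4) in heterozygous and 13.2 ± 1.68 CPM in ko cells.

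The heterozygous mean lay between wt and ko for 35 of the 40 PBS calls tested, 87.5%, against 36.1% of 13161 genes tested in both; among the 146 genes called in untreated ko against wt, the share was 97.9%. The exceptions were Igsf6, Il2rb, AA467197, Fgl2 and Fmnl2. The 3 genotypes did not overlap at all for the lower genes Aqp9, Cd96, Gpr65, Mmrn1, Tox and 2310075C17Rik. No higher gene showed this, of which Evc2 was not tested in untreated HPC. The share of such genes among all tested was not counted, so this is a description only. Aqp9 was at 115 ± 6.45 CPM in wt, 66.5 ± 15.2 CPM in heterozygous and 25.8 ± 5.61 CPM in ko cells (SD, n = 4). Mmrn1 was at 33.4 ± 13.4, 15.6 ± 4.89 and 0.876 ± 0.201 CPM in the same order.

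**Figure D4:**
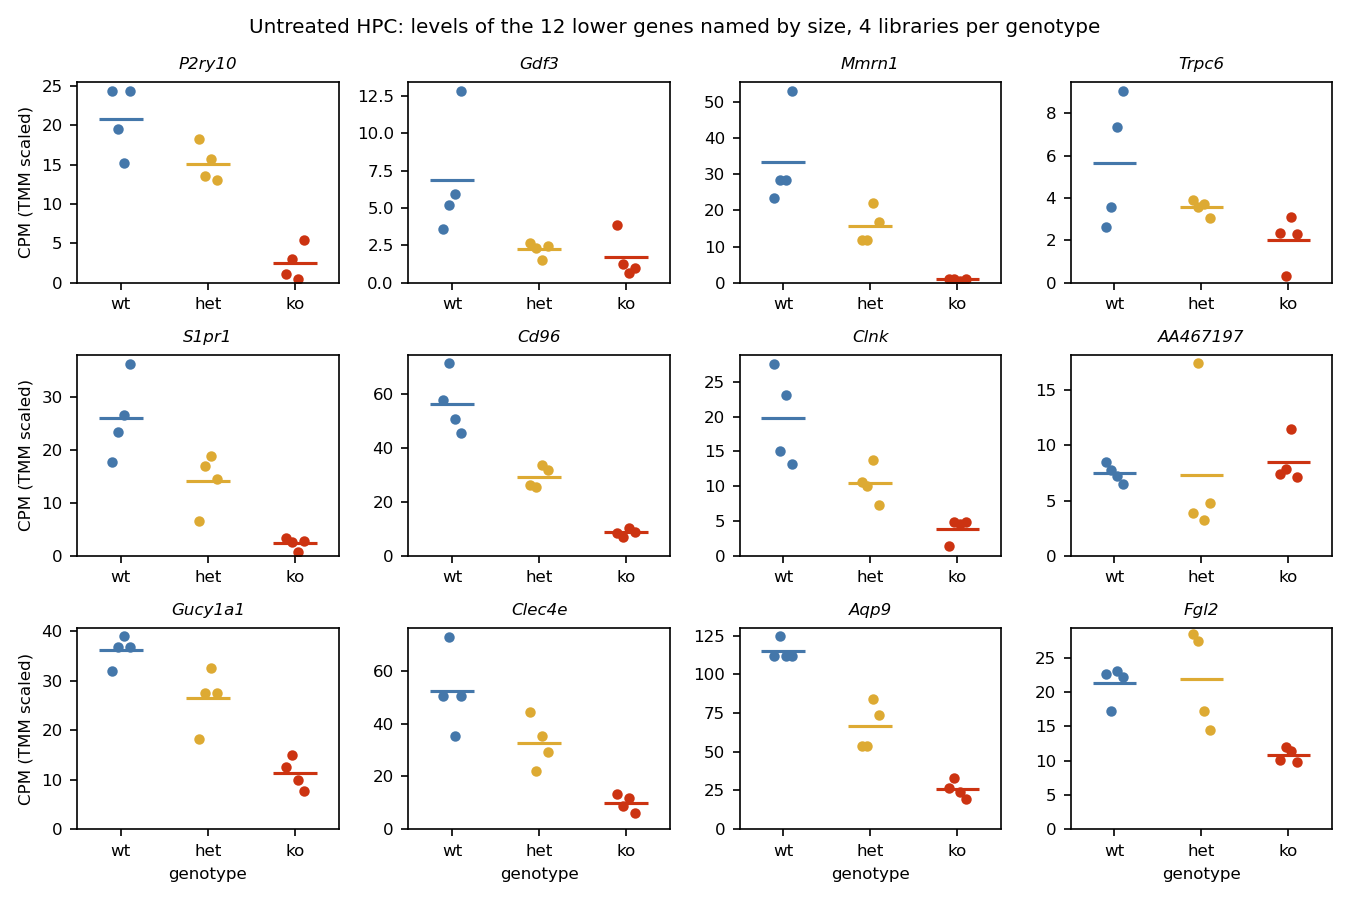
Level in CPM (vertical axes, linear, from 0) of the 12 lower genes named by size in untreated HPC of wt, heterozygous (het) and ko mice, with 1 point per library and a bar at the mean of 4. For Aqp9, Cd96 and Mmrn1 the genotypes do not overlap, and AA467197 does not fall in ko.

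In haematopoietic stem cells (HSC) of mice given PBS, 132 of 16538 genes were called (0.798%), and 42 to 91 with 1 library left out: 49, 42, 60 and 91 without ko 1 to 4, and 60, 54, 74 and 61 without wt 1 to 4. Of the 38 PBS calls of HPC tested there, 35 had the same direction and 16 were called, 39% of the HPC calls and 12.1% of the HSC calls. Myl4, Tox and Igsf6 had the opposite sign in HSC without a call. Tox was at 71.0 ± 9.09 CPM (SD, n = 4) in wt HSC and 83.7 ± 21.0 CPM in ko HSC, and Fyb at 43.8 ± 7.26 and 8.36 ± 1.17 CPM. Trpc6 was much more abundant in HSC, at 68.3 ± 9.35 CPM in wt and 34.0 ± 5.78 CPM in ko, a log2 change of -1.01 ± 0.24 (adjusted p = 0.0519 by edgeR).

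The differences between these effects and the effect after PBS were tested directly, and edgeR called 0 genes in each test. For IL-1 against PBS, 0 of 15951 genes were called, 352 had an unadjusted p under 0.05 (2.21%) and DESeq2 called 12. For HPC against HSC after PBS the numbers were 0 of 17511, 1016 (5.8%) and 13, and for PBS against untreated HPC 0 of 16189, 650 (4.02%) and 0. Among the 41 genes, 11, 18 and 7 had an unadjusted p under 0.05 in the 3 tests. For HPC against HSC these include Trpc6 (unadjusted p = 0.000112), Tox (0.000378) and Fyb (0.000494), the first 2 with the more negative change in HPC and Fyb with the more negative change in HSC; none passed the adjustment, with adjusted p of 0.245, 0.44 and 0.44. For PBS against untreated HPC they include Mmrn1 (unadjusted p = 0.00053, adjusted p = 1), with a log2 change of -3.05 after PBS and -5.23 untreated.

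**Figure D5:**
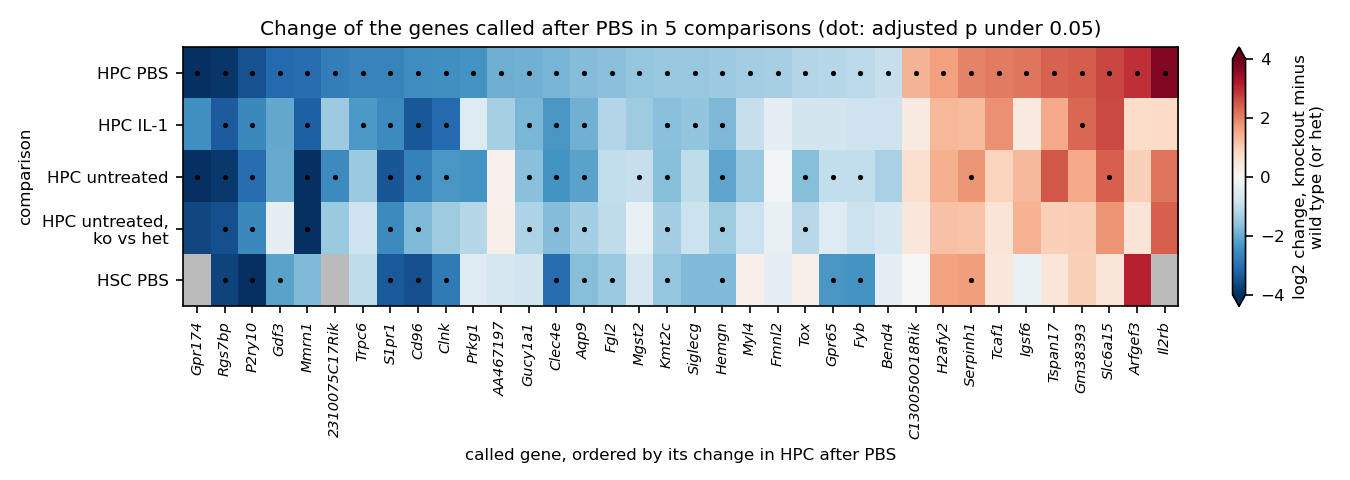
Log2 change (colour, blue lower and red higher in ko, from -4 to 4, larger values drawn at the end colours) of genes called in HPC after PBS, in columns ordered by that change, across 5 comparisons in rows. Dots mark an adjusted p under 0.05 and grey cells genes not tested; Lrrn3, Sva and Armh4, with 0 counts throughout a group, and Evc2, with 1 count in wt, are left out. AA467197 changes side in both untreated rows, and Myl4, Tox and Igsf6 do so in HSC.

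The called genes were also placed by their level across untreated wt populations: those labelled HSC, HPC, pGM and GMP. These levels were scaled over the 4 populations together, so those of HPC differ slightly from the values above. Of the 14 higher genes, 7 had their highest wt level in HSC, 50% against 34.5% of all genes with a level there: Armh4, Evc2, Gm38393, Serpinh1, Slc6a15, Tcaf1 and Tspan17. Slc6a15 was at 36.2 ± 4.75 CPM (SD, n = 4) in wt HSC and 2.34 ± 1.53 CPM in wt HPC, and Tcaf1 at 18.7 ± 6.20 and 3.89 ± 1.91 CPM. Igsf6 had its highest level in GMP, 550 ± 78.1 CPM. The summed level of the stem cell genes Slamf1, Mecom, Hlf and Procr in the PBS libraries was 254 to 386 CPM in wt and 235 to 271 CPM in ko, and its part in these calls was not tested.

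Of the 27 lower genes, 13 had their highest wt level in HSC, 48.15% against 34.48% of all genes, a share close to that of the higher genes. In HPC 7 were highest, 25.93% against 17.73%. In GMP 18 had their lowest level, 66.7% against 40.8% of all genes. Aqp9 went from 107.1 ± 7.44 CPM in wt HPC to 2.42 ± 0.66 CPM in wt GMP, and S1pr1 from 24.0 ± 6.96 to 0.901 ± 0.643 CPM (SD, n = 4). Fgl2, Mgst2 and Siglecg, by contrast, were highest in GMP.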

How the data were processed

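Per the labels, total RNA came from a Qiagen RNAeasy micro plus kit and libraries from a Clontech kit. Per the submitters' processing notes, the authors used STAR 3.0.4 and featureCounts 1.4.5 (Subread); the deposited tables hold whole-number counts per gene, not normalized. Build and strandedness: not given in the sources used here; therefore overlapping, antisense and near-identical genes cannot be separated. Symbols and positions are from GENCODE M21.

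The model held the 12 HPC libraries of the experiment (4 groups of 3), with filterByExpr (minimum count 10, minimum total 15), TMM scaling, and robust quasi-likelihood tests in edgeR 4.0.16 (R 4.3.3). Errors of log2 changes are standard errors. HSC, untreated HPC and differences between effects had fits of their own; untreated and PBS counts were joined by gene ID.

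Members and gene lists were chosen with earlier results of these data known. Named genes are Kmt2c, up to 12 called genes per direction by size (protein coding, at least 5 CPM, no overlap; no Gm or Rik names, antigen receptor segments, Y-linked genes or Xist), called list members, up to 3 members of each list discussed (those of smallest p) and a panel of progenitor genes. Alternatives were DESeq2 1.42.0, RLE scaling, no filter, a replicate block, other sets of libraries, limma 3.58.1 voom with sample weights, a Y-linked covariate, and each library left out. The edgeR script was tested on simulated data. Of the 14 higher genes, 1 is counted but not reported here.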

Additional observations from a re-analysis of the deposited data

Results flagged for a closer look

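Outlying libraries were looked for by Dixon's gap in the groups of 4, the untreated HPC groups, for 19 genes (Kmt2c and the 18 named by size), 57 groups in all. Chance gives such a gap in about 1 in 20 groups, and 6 groups had one. AA467197 was at 17.5 CPM in the highest heterozygous library, against 4.75 CPM in the next. Aqp9 was at 125 CPM in the highest wt library, against 112 CPM in the next. Igsf6 was at 38.2 CPM in the highest ko library, against 13.7 CPM in the next. At the low end, Clnk was at 1.41 CPM in the lowest ko library and 4.61 CPM in the next, Fgl2 at 17.3 CPM in the lowest wt library and 22.2 CPM in the next, and Mmrn1 at 0.576 CPM in the lowest ko library and 0.952 CPM in the next. The groups of 3 after PBS are too small for this check.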

How the results depend on the processing

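The count of 41 genes (HPC ko vs wt after PBS) became 228 with DESeq2, 123 with no filter, 65 with all libraries of the experiment in the fit, 73 with only the 6 PBS libraries, 20 with the Y-linked covariate, 71 without every library of number 1 (added after seeing the data), and 7 to 17 without each library in turn. Of the 41, 4 were called in all 15 alternatives (Aqp9, P2ry10, Gpr174 and S1pr1), 37 were lost in at least 1, and 0 changed sign. The other comparisons moved as follows. After IL-1, 32 calls became 148 with DESeq2, 93 with no filter and 2 to 58 with a library left out. In HSC after PBS, 132 became 375, 246 and 42 to 91, and in untreated HPC 146 became 291 with DESeq2 and 80 to 101. In ko against heterozygous HPC, 26 became 101 with DESeq2 and 11 to 33. Tests of differences, at 0, gave 12 (IL-1 minus PBS) and 13 (HPC minus HSC) with DESeq2, 1 (HPC minus HSC) and 86 (PBS minus untreated) with no filter, and 0 to 1 with a library left out. Of genes not called, Ly6a (-0.02) changed sign with voom (0.0507), without number 1 (0.253), and, over a range of -0.129 to 0.199 with a library left out, without ko PBS 1 (0.0232) and wt PBS 1. Kit (0.18) did so without number 1 (-0.0711) and without wt PBS 1, with a range of -0.126 to 0.441. Dntt (-0.18) did so without number 1 (0.0577) and without wt PBS 1, with a range of -0.343 to 0.0279, and Cd48 (-0.30) without number 1 (0.00499). The causes were not tested.

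With the replicate number as a block, 96 genes were called after PBS, among them all 41, 65 after IL-1 and 13 in ko against heterozygous HPC. Residuals of libraries that share a number correlated at 0.117, 0.0544 and 0.0926 across 15951 genes, and at 0.47, 0.20 and 0.30 across the 3773 genes of at least 50 CPM. Only the second set lies over 0.1 in every pair, so pairing was not assumed. Across all genes each library correlated best with its own number, a hint from the data and not the design. Depth limits the low calls: 3 counts are 0.0682 to 0.104 CPM per PBS library.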

Other observations

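By position, 6 of the 41 called genes lie on chromosome 5, 14.6% against 5.92% of the genes tested: Bend4, C130050O18Rik, Clnk, Evc2, Fgl2 and Kmt2c itself. Within 15 Mb of Kmt2c on either side, a window chosen after the values were seen, 190 other genes were tested and 3 were called (1.58%, against 0.257% of all genes tested), Clnk, Evc2 and Fgl2. Clnk and Fgl2 were lower and Evc2 higher in ko. Chromosome 6 holds 5 of the 41, Clec4e, Gdf3, Mmrn1, Sva and Tcaf1, 12.2% against 5.18%, and chromosome 7 holds 5, 12.2% against 7.30%.

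Just outside the threshold after PBS were Sdc2, a heparan sulfate proteoglycan (log2 change 1.74 ± 0.34, adjusted p = 0.0513 by edgeR), Maged1 (1.21 ± 0.24, 0.0545), Pde3b, a phosphodiesterase (-1.60 ± 0.32, 0.0588), and Cd180, a toll-like receptor relative of B and myeloid cells (-1.77 ± 0.35, 0.0588). They were named after their values were seen.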
